A study of Mus musculus with 22 samples.

Results

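Chromosome 11 was the least lamina-associated chromosome of these mouse embryonic fibroblasts (MEFs). Its members are all deposited intervals placed on chromosome 11 in the 11 LAD lists, 4193 of the 83419 intervals on chromosomes 1 to 19 and X. After neighbours less than 25 kb from each other were merged and pieces of up to 100 kb dropped, there were 1071 LADs on chromosome 11 of 24190 in all. From the first to the last base called in any list, chr11:3002123-121843411 in build mm9, the chromosome spanned 118.841 Mb.

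Lamina-associated domains (LADs) are long stretches of chromatin that lie against the nuclear lamina, the meshwork of lamins under the inner nuclear membrane. They tend to be poor in genes, late in replication and rich in histone H3 methylated at lysine 9, while the chromatin between them is gene-rich and more often transcribed. DamID maps them by fusing the bacterial adenine methyltransferase Dam to lamin B1, so that DNA touching the lamina is methylated, and by correcting for accessibility with unfused Dam (Dam-only). The mouse chromosomes are acrocentric, so that coordinates count from the centromeric end towards the distal telomere. Chromosome 11 is a gene-rich mouse chromosome and the one whose LADs and non-LADs the study painted in single nuclei.

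The 22 samples make up 11 experiments, each with a Dam-lamin B1 library, a Dam-only library and 1 LAD list called from both. All came from primary C57bl/6 MEFs taken at e13.5 and used within 5 passages. The 3 WT lists (embryos 1.5, 1.8 and x17) came from untreated cells that received no control hairpin. The 2 shAC lists (embryos 1.5 and x17) came from cells given a hairpin virus against lamins A and C and selected in puromycin, with the Dam viruses added 4 days after infection and the cells harvested 48 h later. The other 6 lists, 2 for each drug (embryos 1.8 and x17), came from cells given BIX01294, DZNep or TSA 18 to 24 h before the Dam viruses and collected at 60 h, a time whose starting step the labels do not give. BIX01294 inhibits the histone H3 lysine 9 methyltransferase G9a, DZNep lowers histone methylation laid down by EZH2, and TSA inhibits histone deacetylases. Only 3 embryos stand behind all the lists, and each list averages a whole culture. The lists hold interval positions and no signal, so the depth is unknown, the strength of a contact cannot be compared, and neither the cell type nor the knockdown could be checked in them.

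In untreated MEFs LADs covered 47.1% ± 3.34 of chromosome 11 (SD, n = 3), 56.0 Mb on average. The list of embryo 1.5 held 83 LADs and 52.4 Mb, that of embryo 1.8 held 105 LADs and 60.2 Mb, and that of embryo x17 held 82 LADs and 55.3 Mb. This spread between embryos is the error against which the treatments are read. In the median chromosome of the 20, LADs covered 59.1% in WT, and the highest value was 78.8% on the X chromosome. Chromosome 11 had the lowest mean coverage of the 20 chromosomes in all 5 groups, 45.3% in shAC, 50.5% in BIX01294, 48.6% in DZNep and 46.8% in TSA.

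LADs were not spread evenly along the chromosome. In 5 Mb windows, 4 of the 25 windows were LAD-rich, with at least 75% of their length in LADs in the WT mean, 5 were LAD-poor, with at most 25%, and 16 lay between. The LAD-rich windows were those from 10 to 15 Mb (92.2% ± 0.802), from 25 to 30 Mb (85.6% ± 2.95), from 35 to 40 Mb (82.4% ± 0.182) and from 110 to 115 Mb (77.0% ± 2.57; SD, n = 3 each). The next highest, from 90 to 95 Mb, stood at 68.9% ± 0.190, just outside the class. The LAD-poor windows were the one from 75 to 80 Mb, where no WT list held a LAD, the centromeric end from 3 to 5 Mb (1.92% ± 3.32), and the windows from 115 to 120 Mb (10.6% ± 1.25), from 95 to 100 Mb (19.03% ± 3.16) and from 120 to 122 Mb (21.6% ± 19.02). The centromeric side of 60 Mb was 59.8% ± 3.90 in LADs and the telomeric side 35.4% ± 3.06 (SD, n = 3 each), and the lowest WT list of the first, 55.7%, lay above the highest of the second, 38.9%.

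**Figure D1:**
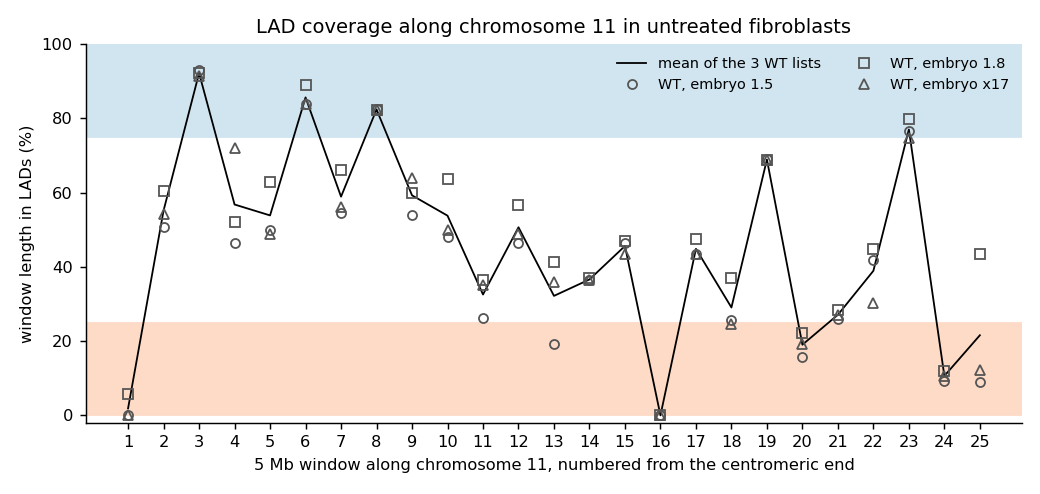
Share of each 5 Mb window of chromosome 11 that lies in LADs (y axis, %) for windows numbered from the centromeric end (x axis), with 1 open symbol per WT list and the mean as a line. Blue marks the LAD-rich range from 75% and orange the LAD-poor range up to 25%; windows 3, 6, 8 and 23 reach the first, and window 16 is at 0 in all 3 lists. The first and the last window are shorter than 5 Mb.

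The WT embryos agreed closely in some windows and not in others. From 35 to 40 Mb the 3 lists gave 82.6%, 82.3% and 82.3%, and from 90 to 95 Mb they gave 69.1%, 68.7% and 68.8% (embryos 1.5, 1.8 and x17). From 15 to 20 Mb they gave 46.4%, 52.0% and 71.9%, from 60 to 65 Mb 19.2%, 41.4% and 36.0%, and in the short last window 8.96%, 43.4% and 12.3%. These had the largest SDs among WT lists, 13.4 and 11.6 points and, in the last window, 19.02 points. In the windows from 60 to 65 Mb and from 120 to 122 Mb the extremes were embryos 1.5 and 1.8, whereas from 15 to 20 Mb embryo x17 stood apart.

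In all, 15.2 Mb of chromosome 11 (12.8% of its span) were called in 1 or 2 of the 3 WT lists, in 185 stretches with a median of 37.0 kb, and 76.7% of these bases lay in the 63 stretches of 100 kb or more. The longest, named here after their values were seen, was chr11:32636370-33123928 (488 kb), which LADs covered for 31.6% in embryo 1.5, 100% in embryo 1.8 and 0% in embryo x17. The next, chr11:60777765-61249194 (471 kb), was a LAD in the WT list of embryo 1.8 alone, and the drug-treated lists covered it for 66.5% to 100%, against 23.9% and 0% in the shAC lists. The next after it, chr11:64336809-64724333 (388 kb), was missing from the WT list of embryo 1.5 and was covered for 78.8% to 100% in the other 10 lists.

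Across all 11 lists, 42.3 Mb of chromosome 11 were LAD in every list, 46.7 Mb were LAD in none and 29.9 Mb were LAD in 1 to 10 lists. The shared part made up 35.6% of the span and the never-called part 39.3%, the lowest and the highest of the 20 chromosomes, against 45.6% and 26.4% over the 20 together. Relative to what was LAD at all, chromosome 11 was close to the other chromosomes: the bases shared by every list came to 75.5% of the mean WT LAD length on chromosome 11 and to 74.99% over the 20 chromosomes. Leaving out any 1 list moved the shared length to at most 43.8 Mb, and the 9 lists other than TSA shared 44.5 Mb.

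The shared length lay in 99 stretches with a median of 246 kb, 8 of them of 1 Mb or more. The longest was chr11:12468137-16381917, 3914 kb without a break in any list, followed by chr11:36860636-40173193 (3313 kb), chr11:26403247-28700933 (2298 kb), chr11:47209773-48577024 (1367 kb) and chr11:41174238-42405030 (1231 kb). All 5 lie on the centromeric side of 60 Mb, where 26.9 of the 42.3 Mb were found. The never-called length lay in 103 stretches, and 13 of 1 Mb or more held 55.3% of it. Its longest stretches were chr11:75823569-80602921 (4779 kb), chr11:94718551-97927300 (3209 kb), chr11:100142623-102525224 (2383 kb), chr11:84612888-86943607 (2331 kb) and chr11:61291082-63104367 (1813 kb). All of these lie on the telomeric side of 60 Mb, which held 31.6 of the 46.7 Mb.

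**Figure D2:**
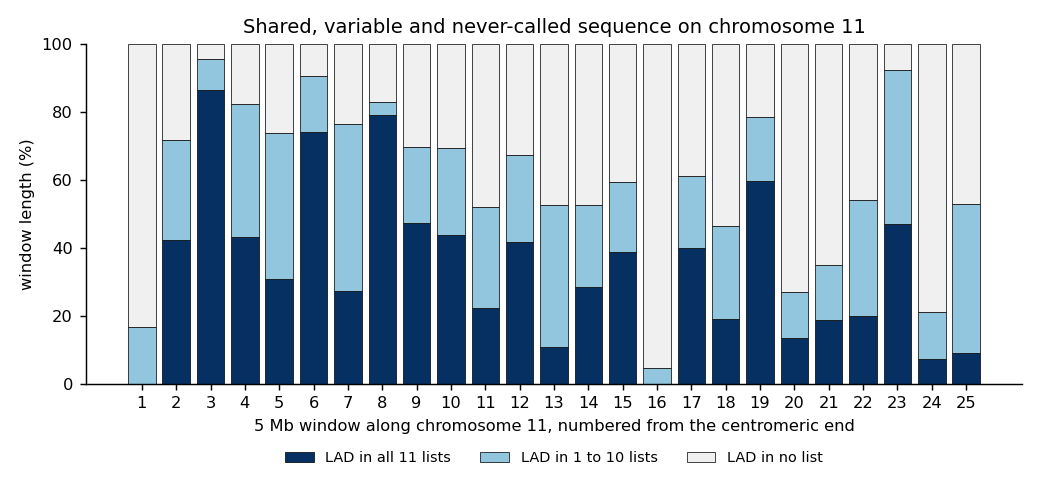
Length of each 5 Mb window of chromosome 11 (y axis, %) that was LAD in all 11 lists, in 1 to 10 lists or in none, for windows numbered from the centromeric end (x axis). The shared part reaches 86.5% in window 3 and 79.2% in window 8 and is 0 in windows 1 and 16, while window 23 combines a low never-called part, 7.65%, with 45.3% called in some lists only.

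The LAD-rich windows differed in how firmly they were called. From 10 to 15 Mb and from 35 to 40 Mb, 86.5% and 79.2% of the length was LAD in all 11 lists. From 110 to 115 Mb, with a WT mean of 77.0%, the shared part was 47.1% and 45.3% was called in some lists. Among the mixed windows, the part called in some lists only was largest from 30 to 35 Mb (49.3%), from 20 to 25 Mb (43.0%) and from 60 to 65 Mb (41.6%). From 60 to 65 Mb 10.97% of the window was shared by every list, against a WT mean of 32.2%.

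The knockdown of lamins A and C and the drugs ask whether the lamins themselves, or the histone marks that LADs carry, hold this pattern in place. No treatment differed from WT in the total LAD length of chromosome 11 by more than the WT lists differed among themselves. The mean differed from WT by -2.09 Mb in shAC, 4.03 Mb in BIX01294, 1.82 Mb in DZNep and -0.409 Mb in TSA (two-sided exact permutation tests, p = 0.7, 0.3, 0.6 and 1, adjusted p = 0.933, 0.933, 0.933 and 1 over the 4 treatments; with 3 lists against 2 no p can be below 0.1). Within embryos, shAC minus WT was 2.96 Mb for embryo 1.5 but -2.86 Mb for embryo x17, and BIX01294 and DZNep likewise had opposite signs in their pairs. TSA was the lower list in both, with -2.12 Mb for embryo 1.8 and -2.28 Mb for embryo x17. Left-out lists turned the sign for TSA, to 1.73 Mb without the WT list of embryo 1.8 and 2.15 Mb without the TSA list of embryo x17, and for shAC, to 0.05005 Mb without the WT list of embryo 1.8. Without the WT lists of embryos 1.5 and 1.8 in turn, the BIX01294 difference was 2.24 and 6.17 Mb and the DZNep difference 0.0313 and 3.96 Mb. Without the shAC list of embryo 1.5 the shAC difference was -3.55 Mb and without the WT list of embryo 1.5 it was -3.87 Mb.

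Under TSA the coverage of chromosome 11 lay closer to WT than that of the other chromosomes, a difference that did not pass the exact permutation test. The other 19 chromosomes together were 61.4% LAD in WT and 57.2% in TSA, a difference of -4.23 points, while that of chromosome 11 was -0.344 points. Chromosome 11 minus the rest was -14.6, -13.53 and -14.8 points in the WT lists (embryos 1.5, 1.8 and x17), -9.24 points in the TSA list of embryo 1.8 and -11.6 points in that of embryo x17. Both TSA lists thus lay outside the WT range, and the mean gap was 3.88 points narrower (exact permutation p = 0.1, the smallest that 3 against 2 lists allow, adjusted p = 0.4). The gap was narrower by 4.29 points within embryo 1.8 and by 3.16 points within embryo x17. The same quantity differed from WT by 0.431 points in shAC, 0.424 in BIX01294 and 0.958 in DZNep (exact permutation p = 0.5, 0.5 and 0.3, adjusted p = 0.5 each), and at least 1 list of each of these groups lay within the WT range. Ranked by TSA minus WT, chromosome 11 came second from the top of the 20, behind the X chromosome, which was 2.58 points higher, and the median chromosome stood at -4.43 points.

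**Figure D3:**
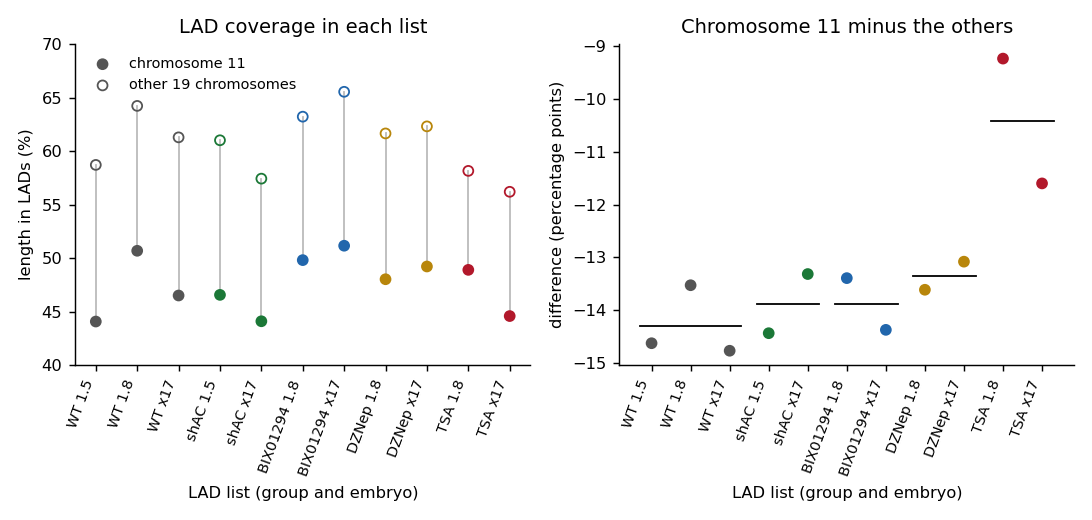
Left, share of length in LADs (y axis, %, starting at 40) in each of the 11 lists (x axis) for chromosome 11 (filled) and the other 19 chromosomes together (open). Right, chromosome 11 minus the others in percentage points, with the group mean as a bar: the TSA lists, at -9.24 and -11.6, lie above the WT lists, which run from -14.8 to -13.53.

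Although the total stayed close, the median LAD was shorter in both TSA lists than in any WT list, a difference that did not pass the exact permutation test. LAD lengths in the treated lists were not compared on the other chromosomes. The median LAD of chromosome 11 was 316, 306 and 369 kb in the WT lists (embryos 1.5, 1.8 and x17), 245 kb in TSA embryo 1.8 and 271 kb in TSA embryo x17, so that the groups did not overlap and the means differed by -72.6 kb (exact permutation p = 0.1, adjusted p = 0.4). LADs of 1 Mb or more held 27.0, 31.2 and 27.5 Mb in the WT lists and 20.2 and 25.6 Mb in the TSA lists, a mean difference of -5.66 Mb (exact permutation p = 0.1, adjusted p = 0.4). LADs of 100 to 250 kb held 9.57% ± 2.39 of LAD bases in WT (SD, n = 3) and 18.9% and 13.1% in TSA. In DZNep they held 12.6% and 13.7%, also above the highest WT list, 11.5%, and the DZNep list of embryo x17 lay above the TSA list of that embryo. BIX01294 embryo 1.8 (11.6%) and shAC embryo 1.5 (11.9%) lay just above that WT list too, while BIX01294 embryo x17 (8.17%) and shAC embryo x17 (11.48%) did not. The list of TSA embryo 1.8 was the further of the TSA pair in each of these measures and had the most LADs of all 11, at 123. In DZNep the median LAD was 299 and 273 kb, below all WT lists as well (exact permutation p = 0.2, adjusted p = 0.4), but LADs of 1 Mb or more held 26.6 and 27.9 Mb, against 27.0 to 31.2 Mb in WT. As a share of LAD bases this class made up 46.6% and 47.7% in DZNep and 34.8% and 48.2% in TSA, all below the WT lists, which ran from 49.7% to 51.8%. BIX01294 embryo 1.8, at 47.1%, lay below them too, while BIX01294 embryo x17 (52.4%) and both shAC lists (55.2% and 53.1%) lay above. The shAC and BIX01294 medians overlapped those of WT, at 291 and 354 kb and at 319 and 344 kb.

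**Figure D4:**
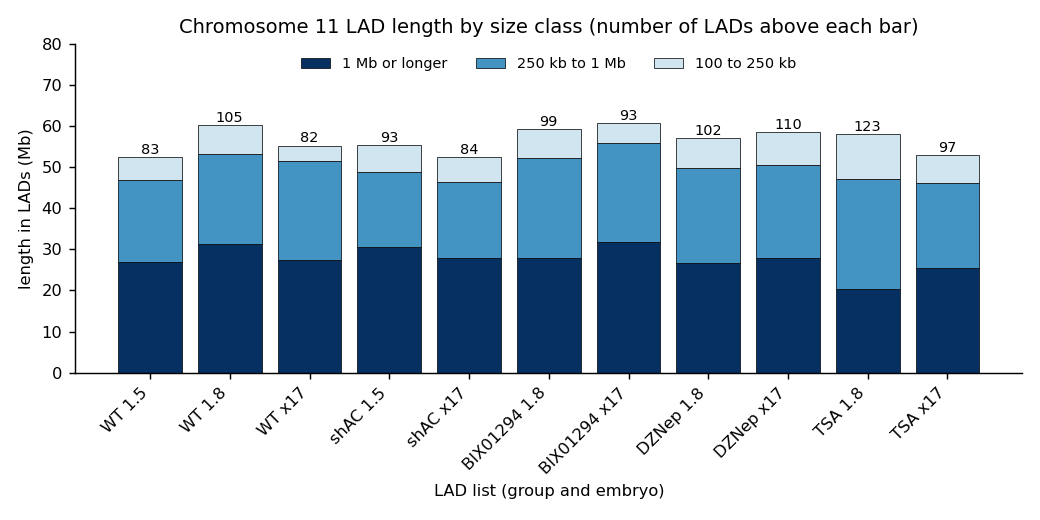
Chromosome 11 LAD length (y axis, Mb) in each of the 11 lists (x axis), divided into LADs of 1 Mb or more, of 250 kb to 1 Mb and of 100 to 250 kb, with the number of LADs above each bar. The part in LADs of 1 Mb or more is lowest in the TSA lists, at 20.2 and 25.6 Mb, while the whole bars, at 58.1 and 53.0 Mb, stay within the WT range of 52.4 to 60.2 Mb.

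The long domains were found in every list. Chromosome 11 held 10 blocks of 1 Mb or more that all 3 WT lists called without a break, 22.3 Mb in all, from 1157 kb (chr11:80644416-81801618) to 3999 kb (chr11:12382458-16381917). Treated lists still covered 98.4% to 99.96% of these bases, with 99.8% and 99.2% in shAC, 99.2% and 99.96% in BIX01294, 99.0% and 99.6% in DZNep and 98.4% and 99.2% in TSA. No block fell below 92.4% in any list, a value reached at chr11:73062452-74251542 in TSA embryo x17. The WT values are 100% because the blocks were chosen on those lists. Continuity varied among the treated lists: the blocks were touched by 10 to 13 LADs in the shAC, BIX01294 and DZNep lists, by 10 in TSA embryo x17 and by 17 in TSA embryo 1.8. By the same choice WT had no breaks, so a treated list could only match it or have more. TSA embryo 1.8 broke 4 of the 10, shAC embryo x17 3, BIX01294 and DZNep embryo 1.8 2 each, shAC embryo 1.5 1 and the other treated lists 0. In TSA embryo 1.8 chr11:91128728-93703598 (2575 kb) lay in 4 LADs and chr11:40610443-42952713 (2342 kb) in 3.

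A window-by-window comparison asked where along the chromosome coverage changed. Coverage in 5 Mb windows was fitted with limma over all 11 lists and 532 windows of the 20 chromosomes, and a window was called at an adjusted p under 0.05. On chromosome 11, 0 of 25 windows were called against WT in shAC (0% of windows over all 20 chromosomes), in BIX01294 (0%) and in DZNep (0%), and 0 of 25 in TSA, where 16.4% of all windows, 87 of 532, were called. At an unadjusted p under 0.05 the chromosome 11 windows numbered 3 of 25 in shAC, 1 in BIX01294, 0 in DZNep and 2 in TSA, and over all 20 chromosomes 48 of 532 in shAC, 22 in BIX01294, 12 in DZNep and 160 in TSA. All 87 TSA calls thus lay on the other 19 chromosomes, and 80 of them were lower and 7 higher. When each list was first centred on its own genome-wide coverage, which moved the median TSA window from -3.06 to 0.987 points, the split over all chromosomes became 43 lower and 28 higher, and 3 chromosome 11 windows were called, all higher: 50 to 55 Mb (adjusted p = 0.0281), 55 to 60 Mb (adjusted p = 0.0143) and 115 to 120 Mb (adjusted p = 0.0188). Centring shifts all windows of a list by the same amount, also nearly empty ones. In the other groups centring moved the median window over all chromosomes from -1.66 to 0.505 points (shAC), from 2.31 to -0.682 points (BIX01294) and from 0.351 to -0.272 points (DZNep). Without the TSA list of embryo x17, 2 of 25 windows were called, at 3 to 5 Mb and 75 to 80 Mb (69 of 532 over all chromosomes), and without the WT list of embryo 1.8, 1 window, at 55 to 60 Mb (57 of 532).

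The uncentred TSA means along the chromosome went both ways, with 12 of 25 windows above WT and 13 below. After centring 19 lay above and 6 below. From 55 to 60 Mb coverage was 46.3%, 56.7% and 49.0% in WT (embryos 1.5, 1.8 and x17) and 62.7% and 58.6% in TSA (embryos 1.8 and x17), so both TSA lists lay above all WT lists, by 10.02 points in the mean (SE 3.49, adjusted p = 0.0811). From 50 to 55 Mb it was 26.2%, 36.4% and 35.1% in WT and 45.5% and 36.9% in TSA, 8.70 points higher (adjusted p = 0.151). From 15 to 20 Mb the TSA mean was 8.57 points higher (adjusted p = 0.470), within a WT range of 46.4% to 71.9%. In the other direction, from 30 to 35 Mb coverage was 54.4%, 66.0% and 56.2% in WT and 49.0% and 51.6% in TSA, below all WT lists (-8.62 points, adjusted p = 0.211). From 20 to 25 Mb the difference was -10.4 points (adjusted p = 0.265) and from 105 to 110 Mb -5.89 points (adjusted p = 0.483). In both the TSA lists overlapped WT, with TSA embryo x17 at 35.0% and 26.3% and TSA embryo 1.8 at 51.8% and 39.7%. Within embryos TSA was lower in both, against WT at 48.9% and 30.2% (x17) and 62.8% and 44.8% (1.8). With the embryo as a block the differences were -11.5 points (adjusted p = 0.102) and -4.80 points (adjusted p = 0.406). Centred, the falls from 30 to 35, 20 to 25 and 105 to 110 Mb came to -4.57, -6.38 and -1.84 points. The rises from 55 to 60, 50 to 55 and 15 to 20 Mb came to 14.1, 12.7 and 12.6 points.

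Both TSA lists lay below all WT lists in 5 of 25 windows of chromosome 11, against 36.1% of windows over all 20 chromosomes, and above all WT lists in 4 of 25, against 6.18%. The 5 lower windows, from 25 to 40 Mb, 70 to 75 Mb and 100 to 105 Mb, differed by -8.62 to -2.36 points. Centring turned 3 of these, to 1.69 points from 35 to 40 Mb, 0.0656 from 70 to 75 Mb and 0.00746 from 100 to 105 Mb. The 4 higher windows were those from 50 to 60 Mb, from 90 to 95 Mb and from 115 to 120 Mb. In the last, a LAD-poor window near the distal end, coverage was 9.34% to 11.8% in WT and 17.2% and 13.2% in TSA (4.61 points higher, adjusted p = 0.171). The empty window from 75 to 80 Mb gained a LAD in 1 list alone, TSA embryo 1.8, which covered 4.76% of it.

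In shAC the window from 15 to 20 Mb was covered for 76.8% and 73.6% (embryos 1.5 and x17), above the WT range of 46.4% to 71.9% and 18.5 points above the WT mean (SE 7.30, adjusted p = 0.501). The WT list of embryo 1.5 was at 46.4% and that of embryo x17 at 71.9%, so within embryos the rise lay mostly in embryo 1.5. With the embryo as a block it was 16.8 points (adjusted p = 0.489). From 30 to 35 Mb the shAC lists stood at 50.001% and 42.5%, below the WT range of 54.4% to 66.0% (-12.7 points, adjusted p = 0.495), and from 105 to 110 Mb at 29.0% and 22.5%, below 30.2% to 44.8% (-13.2 points, adjusted p = 0.501). The third lowest was the window from 20 to 25 Mb (-7.60 points, adjusted p = 0.666), which stood at -3.14 points without the WT list of embryo 1.8 and at -4.43 points with the embryo as a block. The window from 85 to 90 Mb was almost as low (-7.59 points, adjusted p = 0.617, and -6.62 points with the embryo as a block). There the shAC lists, at 22.1% and 20.8%, lay below the WT range of 24.5% to 37.0%. From 45 to 50 Mb (3.96 points, adjusted p = 0.829) and from 120 to 122 Mb (2.44 points, adjusted p = 0.947) the shAC lists lay inside the WT range. With the embryo as a block these differences were 6.44 and 5.49 points, and centred 6.12 and 4.60 points. Both shAC lists were below all WT lists in 5 of 25 windows (15.7% of windows over all 20 chromosomes) and above in 3 of 25 (3.93%).

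With BIX01294 the largest differences were upward, from 15 to 20 Mb (14.5 points, adjusted p = 0.861), from 60 to 65 Mb (9.47 points, adjusted p = 0.861) and from 50 to 55 Mb (7.19 points, adjusted p = 0.861). From 110 to 115 Mb, a LAD-rich window, both lists (84.3% and 83.6%) lay above the WT lists (76.4%, 79.8% and 74.7%). The window from 60 to 65 Mb rested on the low WT list of embryo 1.5, without which the difference was 2.98 points. Differences below WT were -1.92 points from 3 to 5 Mb, -0.849 from 35 to 40 Mb and -0.516 from 5 to 10 Mb (adjusted p = 0.898, 0.899 and 0.971). From 3 to 5 Mb both BIX01294 lists were at 0%, and of the WT lists only that of embryo 1.8 held LADs (5.75%). Centred, the differences below WT came to -4.90, -3.84 and -3.50 points and the 3 upward ones to 11.5, 6.48 and 4.21 points. The windows above WT went from 21 to 12 of 25. Centred differences include a shift common to all windows. From 75 to 80 Mb, where no WT or BIX01294 list held a LAD, the centred difference was -2.99 points. Uncentred, no window had both BIX01294 lists below all WT lists (0.749% over all 20 chromosomes) and 3 of 25 had both above (15.5%).

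The median size of the differences over the 25 windows was lowest in DZNep, at 1.92 points, against 2.11 to 3.98 points in the other groups. Its windows furthest from WT were those from 15 to 20 Mb (8.03 points), from 50 to 55 Mb (5.86 points, with 38.4% and 38.4% against 26.2% to 36.4% in WT) and from 110 to 115 Mb (5.07 points, with 80.8% and 83.3% against 74.7% to 79.8%), and downward those from 30 to 35 Mb (-4.03 points), 100 to 105 Mb (-1.98 points) and 3 to 5 Mb (-1.92 points), each with an adjusted p of 1. The value from 3 to 5 Mb rested on the WT list of embryo 1.8 (5.75%), since both DZNep lists were at 0%. Both DZNep lists were below all WT lists in 2 of 25 windows (6.93% over all 20 chromosomes) and above in 3 of 25 (6.37%). All 4 treatments were read against the same 3 WT lists, so that a low or high WT list enters each of them. From 15 to 20 Mb, where all 4 means lay above WT, the WT lists of embryos 1.5 and 1.8 were the lowest values of the 11.

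**Figure D5:**
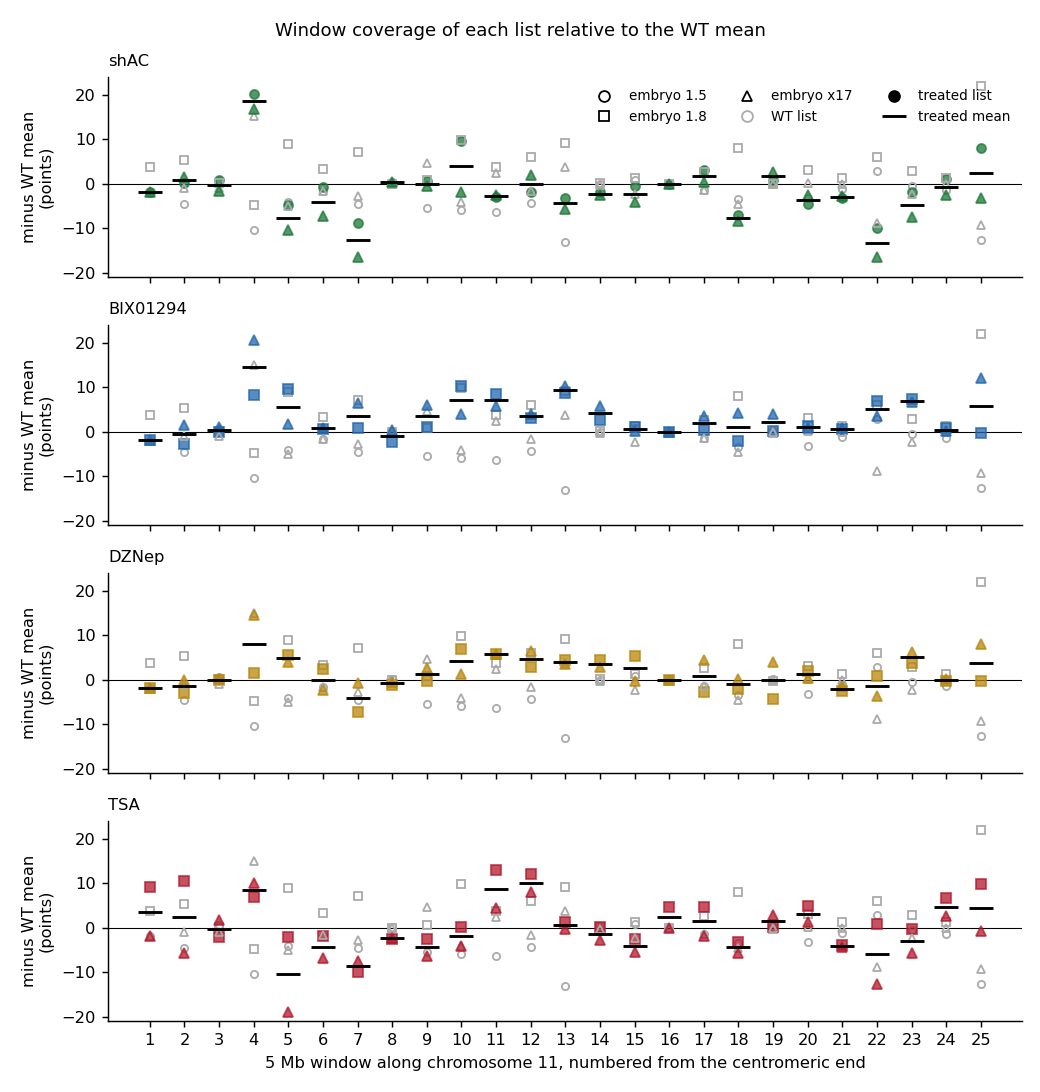
Coverage of each 5 Mb window of chromosome 11 in each list minus the WT mean (y axis, percentage points), for windows numbered from the centromeric end (x axis) and 1 panel per treatment. Open grey symbols are the WT lists, filled symbols the treated lists, shapes the embryos and black bars the treated means; most filled symbols fall among the grey ones, and the filled symbols furthest out are BIX01294 embryo x17 and shAC embryo 1.5 in window 4 (77.4% and 76.8%, WT mean 56.8%) and TSA embryo x17 in window 5 (35.0%, WT mean 53.8%).

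Set directly against the other treatments, TSA differed from BIX01294 in 1 window. From 110 to 115 Mb coverage was 76.8% and 71.3% in TSA (embryos 1.8 and x17) and 84.3% and 83.6% in BIX01294, -9.89 points in TSA minus BIX01294 (SE 2.84, adjusted p = 0.0371). This was 1 of 25 windows on chromosome 11, where 22% of windows were called over all 20 chromosomes. The call was lost without either BIX01294 list or either DZNep list (adjusted p at least 0.0602), while 2 windows were called with the embryo as a block, the second from 20 to 25 Mb (-16.0 points, adjusted p = 0.0311). With each list centred on its genome-wide coverage the window from 110 to 115 Mb was not called (-2.85 points, adjusted p = 0.443). Called instead were 3 to 5, 55 to 60, 75 to 80 and 115 to 120 Mb, all higher in TSA (51 of 532 over all chromosomes). From 3 to 5 and from 75 to 80 Mb both BIX01294 lists were at 0%, and of the TSA lists only embryo 1.8 held LADs. There centring moved the difference from 5.49 to 12.5 points and from 2.38 to 9.42 points, since it shifts all windows of a list alike. Against shAC 0 of 25 windows were called (14.3% over all 20 chromosomes; at an unadjusted p under 0.05, 4 of 25 and 169 of 532), and against DZNep 0 of 25 (12.4%; unadjusted, 2 of 25 and 140 of 532). Centred, 4 windows were called against shAC (101 of 532 over all chromosomes, 52 of them higher) and 1 against DZNep (35 of 532, 12 of them higher), each of those on chromosome 11 higher in TSA. Without the TSA list of embryo x17 there were 4 calls against shAC (87 of 532 over all chromosomes), 2 against BIX01294 (76 of 532) and 2 against DZNep (60 of 532). Without the TSA list of embryo 1.8 there were 2 against BIX01294 (80 of 531), and without the WT list of embryo 1.5 there were 1 against shAC (82 of 532) and 2 against BIX01294 (130 of 532).

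Losses and gains were counted base by base, as sequence called in all WT lists and in neither treated list, or the reverse. On chromosome 11 they came to 0.663 Mb lost and 0.268 Mb gained in shAC, 0.0126 and 0.493 Mb in BIX01294, 0.179 and 0.599 Mb in DZNep, and 1.29 and 0.894 Mb in TSA. The losses made up 1.36% of the bases called in all WT lists in shAC (1.14% over the 20 chromosomes together), 0.0258% in BIX01294 (0.226%), 0.368% in DZNep (0.424%) and 2.66% in TSA (4.26%), where 2 of the other chromosomes had lower values. The gains made up 0.487% of the bases called in no WT list in shAC (0.776% over the 20 chromosomes), 0.898% in BIX01294 (1.49%), 1.09% in DZNep (0.887%) and 1.63% in TSA (1.69%). The losses were also placed within the runs of bases called in all WT lists, which can be parts of longer LADs. Of the TSA losses 54.8% lay at the edge of a run, 33.2% made up a whole run and 12.1% lay inside one. The same shares were 59.4%, 25.3% and 15.3% in shAC, 66.3%, 0% and 33.7% in DZNep and 100%, 0% and 0% in BIX01294. The lost and gained lengths require every list and can only grow when one is left out. The TSA loss was 2.21 Mb without the WT list of embryo x17, 3.83 Mb without the TSA list of embryo 1.8 and 2.39 Mb without that of embryo x17. The shAC loss was 1.17 Mb and 1.799 Mb without the WT lists of embryos 1.5 and x17, 2.65 Mb without the shAC list of embryo 1.5 and 1.24 Mb without that of embryo x17.

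The longest stretch lost under TSA was chr11:64800129-65002100 (202 kb), covered in full by the 3 WT lists and both BIX01294 lists, for 99.8% in shAC embryo 1.5, 0% in shAC embryo x17, 100% and 67.1% in DZNep and 0% in both TSA lists. The next were chr11:21231903-21339289 (107 kb) and chr11:103655414-103755852 (100 kb). The latter was absent from both TSA lists and covered for 57.4% or more in all 9 others. In the other direction chr11:56812084-56984647 (173 kb) was LAD in both TSA lists and was also covered in full in shAC embryo x17 and for 85.5% in DZNep embryo x17. The other gained stretches, chr11:94569510-94701940 (132 kb) and chr11:116767547-116875630 (108 kb), were covered in full in both TSA lists and for 0% in the other 9. The first lies next to the LAD-poor window from 95 to 100 Mb and the second within that from 115 to 120 Mb.

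Stretches lost in shAC were chr11:107063897-107231755 (168 kb), chr11:30546203-30648925 (103 kb) and chr11:87500674-87588095 (87.4 kb). The first, in the window from 105 to 110 Mb, was covered for 92.8% to 100% in the BIX01294 and DZNep lists, for 97.3% in TSA embryo 1.8 and for 0% in TSA embryo x17. Gained were chr11:22577364-22680877 (104 kb), chr11:9395633-9443067 (47.4 kb) and chr11:17883205-17911992 (28.8 kb). The first of these was also covered in full by both DZNep lists and by BIX01294 embryo 1.8, and for 0% by the TSA lists.

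BIX01294 removed little: its longest losses, chr11:104540547-104549801, chr11:28705144-28706888 and chr11:55332828-55333978, were 9.26, 1.75 and 1.15 kb long. Its longest gains were chr11:65293524-65430558 (137 kb), chr11:54864739-54945318 (80.6 kb) and chr11:16818634-16858950 (40.3 kb). DZNep lost chr11:74204416-74251542 (47.1 kb), chr11:87554744-87587404 (32.7 kb) and chr11:100003560-100031442 (27.9 kb) and gained chr11:22572899-22725749 (153 kb), chr11:65324746-65428364 (104 kb) and chr11:58044590-58112631 (68.0 kb). The last was covered in both DZNep lists and in none of the other 9. Without the BIX01294 list of embryo x17 the BIX01294 loss was 0.636 Mb, and without the DZNep list of embryo x17 the DZNep loss was 0.945 Mb, so that single lists set these lengths. The gains rose likewise, to at most 1.33 Mb in shAC without the WT list of embryo x17, 2.44 Mb in BIX01294 and 2.13 Mb in DZNep without the WT list of embryo 1.8, and 3.66 Mb in TSA without its list of embryo x17.

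Over all pairs of lists, the mean overlap with the WT lists was lowest in TSA. Of the chromosome 11 LAD bases of a WT list, 91.2% ± 5.01 were LAD in another WT list, 89.8% ± 4.45 in a shAC list, 95.6% ± 2.14 in a BIX01294 list, 93.4% ± 2.45 in a DZNep list and 88.3% ± 3.25 in a TSA list (SD, 6 pairs of lists each, which share lists and are not independent). On the other chromosomes the TSA value was 86.6% and the WT value 92.5%. The Jaccard index of 2 lists (their common LAD bases over their combined ones) was 0.835 ± 0.0145 between WT lists (3 pairs) and 0.795 ± 0.0183 between WT and TSA lists (6 pairs), and the lowest WT pair, 0.822, lay just above the highest WT and TSA pair, 0.821. For shAC, BIX01294 and DZNep it averaged 0.841, 0.854 and 0.849. Pairs of WT lists always join different embryos, whereas 2 of the 6 pairs of each treatment come from the same embryo, also in the shares above. Over the 4 pairs of different embryos the index averaged 0.829 in shAC, 0.843 in BIX01294, 0.840 in DZNep and 0.785 in TSA. In those pairs the shares of WT LAD bases did not separate TSA from shAC. They were 90.2%, 87.2%, 82.2% and 93.4% in shAC and 91.7%, 88.7%, 82.5% and 91.0% in TSA. The TSA lists also resembled each other least of the treated pairs, at 0.809, against 0.868 to 0.877 in the other groups. Of the bases called in a single list, 36.5% came from TSA embryo 1.8, and of those missed by a single list, 31.0% were missed by TSA embryo x17 and 27.9% by WT embryo 1.5.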

How the data were processed

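DamID-seq had been done on 11 pairs of Dam-lamin B1 and Dam-only libraries. The authors called LADs in each pair with LADetector, which segments the ratio of the paired libraries, without pooling replicates, and deposited interval positions that carry no signal, score or count. Build mm9 is given in the submitters' processing notes; the aligner is not given in the sources used here. Depth is unknown, so precision rests on the number of lists. The deposited lists still held gaps under 25 kb (the smallest on chromosome 11 was 10005 bp; whether shorter gaps had been joined is not given in the sources used here) and pieces of up to 100 kb, and both steps of the study's methods were applied, merging neighbours less than 25 kb from each other and then dropping pieces of up to 100 kb. On chromosomes 1 to 19 and X, the share of each 5 Mb window (at least 1 Mb long) in LADs was computed over the span called in any list, and 32 intervals on other chromosomes were left out.

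Windows were compared with limma 3.58.1 in R 4.3.3 (a linear model over all 11 lists with a trend in the prior variance, Benjamini-Hochberg adjustment over 532 windows; the 2 windows without any variation were not tested). Single values per list were compared by two-sided exact permutation, adjusted over the 4 treatments. Python 3.11.15 with numpy 2.4.6, pandas 2.3.3 and matplotlib 3.10.9 was used for the rest, and the interval arithmetic and window test were tested on simulated data. Libraries with the same embryo name come from 1 animal, which pairs them across treatments. Deviations of window coverage from the group means correlated at 0.0433 to 0.527 in same-embryo pairs of lists (above 0.1 in 15 of 17; the deviations of a group of 2 lists mirror each other, so that some of these values repeat). Alternatives were the lists as deposited, joining under 50 kb, a minimum of 200 kb, a grid moved by 2.5 Mb, other scales and variance models, the embryo block and leaving out each list.

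The chromosome and the measures were chosen with earlier results of these data known. Named were all LAD-rich and LAD-poor windows, the 3 with the largest WT SD, every called window, the 3 largest differences in each direction per treatment, the 5 longest shared and never-called stretches and the 3 longest losses and gains per treatment. No genome or annotation of build mm9 was used, so genes and sequences of these regions are not analysed here, nor are the signal tracks.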

Additional observations from a re-analysis of the deposited data

Results flagged for a closer look

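One window was called between treatments by the test of their difference: from 110 to 115 Mb coverage in TSA minus that in BIX01294 was -9.89 points (limma, adjusted p = 0.0371), with both TSA lists below both BIX01294 lists. It was 1 of 25 windows, against 22% of windows over all 20 chromosomes, and the call was lost without either BIX01294 list or either DZNep list. With each list centred on its genome-wide coverage the difference was -2.85 points (adjusted p = 0.443).

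In other windows every list of one treatment lay below all WT lists and every list of another above them; the differences among shAC, BIX01294 and DZNep were not tested. From 65 to 70 Mb shAC differed from WT by -2.24 points, BIX01294 by 4.29 points and DZNep by 3.62 points, around WT lists that lay within 36.4% to 36.9%; centred, these were -0.0803, 1.31 and 2.99 points. From 35 to 40 Mb shAC differed by 0.341 points and DZNep by -0.776 points, around WT lists within 82.3% to 82.6%. TSA also lay below all WT lists there, by -2.36 points in the mean, and TSA minus shAC was -2.70 points (limma, adjusted p = 0.280). Centred, the differences from WT in that window were 2.502 points in shAC, -1.40 in DZNep and 1.69 in TSA.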

How the results depend on the processing

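The numbers of LAD-rich and LAD-poor windows (3 to 5 and 4 to 7) and the lengths called in all lists and in none stayed within 1.5 times under each alternative run. Of 637 recomputed values, 547 kept direction and call, or stayed within 1.5 times for lengths and counts. The causes of the others were not tested. For the exact permutation tests the call could not change, since 3 lists against 2 never reach a p under 0.05. Window counts that stayed at 0 were also scored as kept.

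With the lists as deposited, the chromosome 11 LAD length under TSA differed by 0.0244 Mb, the gap to the other chromosomes by -0.343 points under shAC and 0.0516 points under BIX01294, the BIX01294 loss was 0.0937 Mb and 1 window was called in TSA against DZNep (83 of 532 over all chromosomes). Joining under 50 kb gave length differences of 3.52 Mb for DZNep and -0.0950 Mb for TSA, a DZNep gap of 1.94 points, a BIX01294 gain of 0.774 Mb, a DZNep loss of 0.0309 Mb, 2 windows in TSA against BIX01294 (118 of 530) and 1 in TSA against DZNep (63 of 530). A minimum of 200 kb gave length differences of 0.687 Mb for DZNep and -2.37 Mb for TSA, gaps of 0.590 points for DZNep and 2.56 points for TSA, a shAC gain of 0.142 Mb, a DZNep loss of 0.505 Mb and 1 window each in TSA against WT (50 to 55 Mb, 12.3 points; 53 of 532) and against shAC (54 of 532). The moved grid gave 2 windows in TSA against BIX01294 (120 of 523). Centring gave 3 windows in TSA against WT (71 of 532) and 4, 4 and 1 against shAC, BIX01294 and DZNep (101, 51 and 35 of 532). Fitted with WT alone, TSA had 43 calls over all chromosomes and 0 on chromosome 11.

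With same-embryo pairs (the replicate block), the length difference was 0.05005 Mb for shAC, 2.24 Mb for BIX01294, 0.0313 Mb for DZNep and -2.20 Mb for TSA, the gap 0.820 points for shAC and 0.265 points for BIX01294, the shAC gain 0.570 Mb, the BIX01294 loss 0.112 Mb and the DZNep loss 0.428 Mb, and 2 windows were called in TSA against BIX01294; over all chromosomes the TSA calls went from 76 to 52 against shAC, 117 to 131 against BIX01294, 66 to 77 against DZNep and 87 to 88 against WT. On chromosome 11 the block changed no other call.

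Leaving out each list in turn (a group then holding 1 list is assumed to vary like the others) gave length differences of -2.97 to 2.15 Mb for TSA, -3.87 to 0.05005 Mb for shAC, 2.24 to 6.17 Mb for BIX01294 and 0.0313 to 3.96 Mb for DZNep, and gaps to the other chromosomes of -0.0652 to 0.913 points for BIX01294, -0.129 to 0.990 points for shAC and 0.693 to 1.35 points for DZNep. The narrower TSA gap ranged over 2.70 to 5.06 points. Losses ranged over 0.730 to 2.65 Mb (shAC), 0.112 to 0.636 Mb (BIX01294), 0.348 to 0.945 Mb (DZNep) and 1.54 to 3.83 Mb (TSA), and gains over 0.394 to 1.33, 0.539 to 2.44, 0.667 to 2.13 and 0.902 to 3.66 Mb. Called windows of chromosome 11 ranged over 0 to 2 in TSA against WT, BIX01294 and DZNep and over 0 to 4 against shAC, and those over all chromosomes over 52 to 88 against WT, 20 to 130 against BIX01294, 14 to 69 against DZNep and 29 to 87 against shAC.

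Among the named window differences, sign changed for BIX01294 from 3 to 5 Mb (0.338 as deposited), from 35 to 40 Mb (0.171 with 50 kb joining, -2.20 to 0.497 without single lists) and from 5 to 10 Mb (2.86 as deposited, 2.59 with 50 kb joining, 0.186 with the 200 kb minimum, -2.74 to 2.15 without single lists), for DZNep from 3 to 5 Mb (0.840 as deposited), and without single lists for shAC from 120 to 122 Mb (-3.87 to 13.4) and from 45 to 50 Mb (-1.76 to 9.68) and TSA from 105 to 110 Mb (-12.6 to 0.796). With no change of sign, leaving out single lists gave 8.33 to 22.02 points for BIX01294, 1.598 to 15.6 for DZNep and 3.40 to 16.1 for TSA from 15 to 20 Mb, 4.03 to 9.10 for BIX01294, 2.69 to 7.76 for DZNep and 4.40 to 12.998 for TSA from 50 to 55 Mb, 2.98 to 14.1 for BIX01294 from 60 to 65 Mb, -10.4 to -3.14 for shAC and -18.8 to -2.06 for TSA from 20 to 25 Mb, and -7.31 to -0.475 for DZNep and -10.8 to -5.07 for TSA from 30 to 35 Mb.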
